A study of Mus musculus with 5 samples.

Results

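Transcripts of white and brown adipocytes were followed in thoracic aortas of mice whose smooth muscle expresses a dominant negative PPARγ. The set held 40 genes, 30 of white and 10 of brown adipocytes, listed by name as known adipocyte transcripts, with earlier results of these data known. A single-gene probe set was found for 37 of them, 27 white and 10 brown, among 18193 named genes, and each gene was read from the brightest of its probe sets, by the mean of the 5 arrays. Plin1, Cfd and Adrb3 had no probe set in the annotation table used and were not analysed here. Levels are log2 values that the authors normalised with RMA from Affymetrix Mouse Genome 430 2.0 arrays, on which a probe set is a group of short probes near the 3′ end of a transcript. P467L mice, read on 3 arrays, carry dominant negative human PPARγ with that mutation, driven by the promoter of smooth muscle myosin heavy chain (SMMHC). Their non-transgenic littermates were read on 2 arrays. All mice were male C57BL/6, and a pool of 6 to 8 aortas, described as an independent replicate, went on each array. Age, and whether fat was trimmed from the vessels, are not given in the sources used here. The transgene was directed to smooth muscle, so adipocytes were not its intended site.

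The thoracic aorta lies in perivascular fat, which in mice has many features of brown fat. White adipocytes store triglyceride in a lipid droplet and secrete adipokines, while brown adipocytes burn fatty acids and release heat through the uncoupling protein UCP1. PPARγ, together with C/EBPα, drives adipocyte differentiation in fat cells, and many of the genes described here are among its known targets there. In RNA of a whole vessel, fewer cells of a type and less RNA per cell cannot be told apart.

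Array medians over all probe sets lay between 6.17 and 6.25. Smooth muscle markers had nearly the same summed level in all arrays, 16.82 to 16.83 (log2) in P467L and 16.79 to 16.81 in non-transgenic aortas. That sum follows the brightest markers, such as Acta2 at 14.79 to 14.83. None of the 10 passed the test between genotypes described below. Without overlap of the ranges 2 lay higher in P467L, Des by 0.80 and Smtn by 0.16, and 1 lower, Myocd, at -0.36. Over all named genes 16.1% lay higher and 6.55% lower without overlap. P467L replicate 1 stood apart from the rest: its correlation with the other arrays was 0.9852 to 0.9905, against 0.9951 to 0.9974 among those 4, and nuclear noncoding RNAs were lower there, with Malat1 at 8.03 against 9.45 to 9.87 elsewhere. Stomach transcripts were high in non-transgenic replicate 2, in which the gastric chitinase Chia1 reached 11.53, against 5.50 to 7.70 elsewhere. Without P467L replicate 1 the difference between genotypes changed sign in 9 of the 37 members measured, and without non-transgenic replicate 2 in 13. Values with single arrays left out are given below for Adipoq, Cidec, Ucp1 and other members.

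No adipocyte gene passed the test between genotypes. Limma with Benjamini-Hochberg adjustment over 45037 probe sets called 0 of 37 members, where it called 0.0% of all probe sets, and the adjusted p of the members ran from 0.705 to 1. At an unadjusted p of 0.05 it called 0 of 37 members as well, against 9.45% of all named genes read in the same way. White members had a median difference of 0.02 (P467L minus non-transgenic, log2), 15 higher and 12 lower as measured, and brown members had a median of -0.21, with 3 higher and 7 lower. Over all named genes the median was 0.02. The members spread widely between arrays. Their median range over the 5 arrays was 0.57 for white and 0.91 for brown members, against 0.26 for all named genes, and the largest range was that of Ucp1 at 2.10. The wide spread also limits the comparison. The median standard error (SE) of a member's difference was 0.203, against 0.0793 for all named genes.

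**Figure D1:**
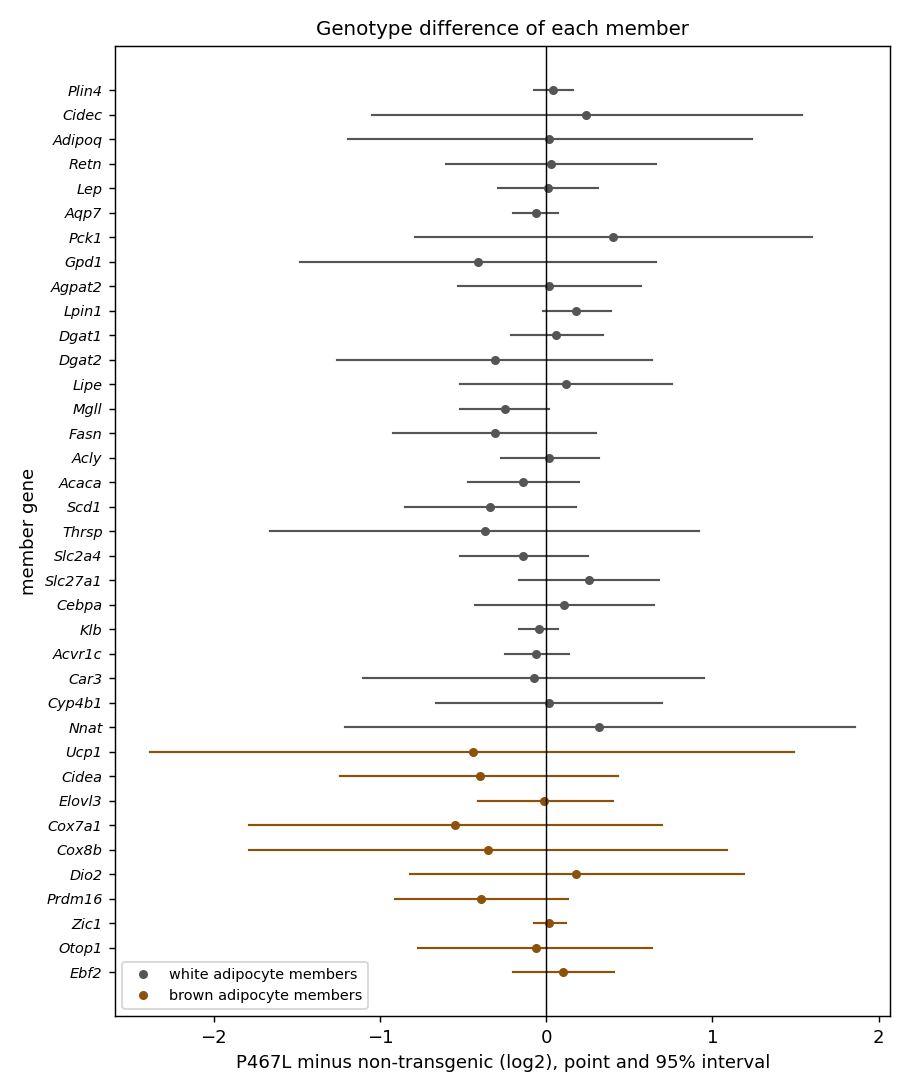
Difference of each member between genotypes (P467L minus non-transgenic, log2 scale, horizontal axis) with its 95% interval from limma, 3 P467L against 2 non-transgenic arrays; grey marks white and brown colour marks brown adipocyte members. Every interval includes 0, and that of Ucp1, from -2.38 to 1.49, is the widest.

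The 250 bases before the transcription start are shown for 4 members whose levels differed widely between arrays, a white pair (Adipoq, Thrsp) and a brown pair (Ucp1, Cox7a1), to set side by side the control regions of genes that varied together. They are RefSeq sequences of build GRCm38.p6, read 5′ to 3′ on the strand of the gene, and capitals mark CCAAT on either strand, the only motif of those searched that they hold.
Adipoq, chr16:23146286-23146535, plus strand: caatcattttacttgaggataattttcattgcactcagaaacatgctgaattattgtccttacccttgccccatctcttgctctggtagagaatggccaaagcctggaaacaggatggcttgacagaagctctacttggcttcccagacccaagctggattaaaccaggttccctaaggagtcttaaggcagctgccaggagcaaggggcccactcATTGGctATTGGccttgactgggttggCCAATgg
Thrsp, chr7:97417551-97417800, minus strand: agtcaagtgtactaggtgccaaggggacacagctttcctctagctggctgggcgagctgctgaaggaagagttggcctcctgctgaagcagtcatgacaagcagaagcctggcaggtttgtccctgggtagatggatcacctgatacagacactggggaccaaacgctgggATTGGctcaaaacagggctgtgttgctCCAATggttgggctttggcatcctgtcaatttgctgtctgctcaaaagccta
Ucp1, chr8:83290098-83290347, plus strand: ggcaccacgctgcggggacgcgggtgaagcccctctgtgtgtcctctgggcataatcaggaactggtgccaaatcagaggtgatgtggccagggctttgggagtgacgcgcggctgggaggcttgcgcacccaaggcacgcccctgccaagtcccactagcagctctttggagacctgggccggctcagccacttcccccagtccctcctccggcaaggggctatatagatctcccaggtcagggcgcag
Cox7a1, chr7:30183921-30184170, plus strand: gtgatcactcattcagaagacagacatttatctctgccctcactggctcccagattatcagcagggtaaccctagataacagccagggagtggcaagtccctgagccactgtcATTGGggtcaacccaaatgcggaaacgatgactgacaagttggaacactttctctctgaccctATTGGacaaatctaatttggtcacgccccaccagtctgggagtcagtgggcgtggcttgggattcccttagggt
The Ucp1 window held no match to any motif searched. Among the 40 members, 30 had a promoter entry, and CCAAT lay in the windows of 8 of these, against 37.5% of all genes with an entry. The letters TTNNGCAA, a short form of the C/EBP element, lay in the windows of 4 members, Cidec, Dio2, Lep and Plin1, against 10.8% of all genes. The direct repeat AGGTCANAGGTCA, the form bound by PPARγ with its partner RXR, was found in 0 of the 30 and in 0.0407% of all genes. Its looser form AGGNCANAGGNCA, which includes the stricter one, was found in 0 of the 30 and in 0.4% of all genes. Both strands were searched, and only these windows were read.

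Among adipokines, Adipoq, which encodes adiponectin, measured 10.30, 9.54 and 9.66 in P467L replicates 1 to 3 and 10.39 and 9.23 in non-transgenic replicates 1 and 2. The non-transgenic arrays thus held both the highest and the lowest value, and the P467L arrays lay between them. The means were 9.83 ± 0.41 (SD, n = 3) in P467L aortas and 9.81 ± 0.82 (SD, n = 2) in those of non-transgenic mice. The difference was 0.02, and its 95% interval ran from -1.19 to 1.24. It was -0.21 without P467L replicate 1, 0.60 without non-transgenic replicate 1 and -0.56 without non-transgenic replicate 2. Retn, which encodes resistin, measured 8.65, 8.31 and 8.15 in P467L and 8.60 and 8.08 in non-transgenic aortas. Replicate 1 of each genotype again held the high values and non-transgenic replicate 2 the lowest, over a narrower range, and the difference was 0.03 (SE 0.23), or -0.11 with P467L replicate 1 left out and -0.23 with non-transgenic replicate 2 left out. Lep, which encodes leptin, lay below the median level of all probe sets, 6.23, in every array, at 5.02 to 5.31 in P467L and 5.06 to 5.23 in non-transgenic aortas.

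Of the lipid droplet genes, Cidec, whose protein makes droplets grow by fusing them, measured 7.87, 6.96 and 7.26 in P467L and 7.72 and 6.52 in non-transgenic aortas. It was high in replicate 1 of both genotypes and lowest in non-transgenic replicate 2, and the difference of 0.24 had an interval from -1.05 to 1.54. Without P467L replicate 1 it was -0.01, without non-transgenic replicate 1 it was 0.84 and without non-transgenic replicate 2 it was -0.36. Plin4, a coat protein of small droplets that is also present in muscle, measured 12.02, 11.95 and 11.95 in P467L and 11.95 and 11.91 in non-transgenic aortas. Its range of 0.11 was below that of Cidec and of each adipokine gene.

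Glycerol and triglyceride synthesis was read from 7 genes, with a median difference of 0.02. Pck1, the carboxykinase that supplies glycerol backbone in fat, measured 9.05, 8.32 and 8.97 in P467L and 8.95 and 7.80 in non-transgenic aortas, a difference of 0.40 (SE 0.44). Non-transgenic replicate 2 was the lowest array, and without it the other 4 lay between 8.32 and 9.05 and the difference was -0.17. Gpd1, the dehydrogenase that makes glycerol phosphate, measured 9.51, 8.80 and 8.95 in P467L and 10.00 and 9.00 in non-transgenic aortas. Here non-transgenic replicate 1 stood above every other array, and the difference was -0.41 (SE 0.39), or 0.09 without that array. With P467L replicate 1 left out it was -0.62, and with non-transgenic replicate 2 left out -0.91. Dgat2, which catalyses the last step of triglyceride synthesis, showed the same order at the top, with 9.24, 8.89 and 8.68 in P467L and 9.72 and 8.77 in non-transgenic aortas. Dgat1, another enzyme of that last step, ranged over 0.26 only. Agpat2, an acyltransferase of an earlier step, had a difference of 0.02 (SE 0.20). Aqp7, a glycerol channel, was dim, with the same value of 4.97 in 4 arrays and 5.10 in non-transgenic replicate 1.

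Lpin1, the phosphatidate phosphatase of this pathway, was one of 4 members in which the ranges of the genotypes did not overlap. It measured 9.69, 9.60 and 9.60 in P467L and 9.54 and 9.35 in non-transgenic aortas, a difference of 0.18 (SE 0.07, limma unadjusted p = 0.0651, adjusted p = 0.721). Its other probe set gave 9.16, 9.11 and 9.04 in P467L and 8.93 and 8.74 in non-transgenic aortas, again without overlap, a difference of 0.27 with an interval from 0.06 to 0.48 (limma unadjusted p = 0.0232, adjusted p = 0.551). It was the 1 further probe set of a member, of 38, under an unadjusted p of 0.05. Without non-transgenic replicate 2 the difference by the brighter probe set was 0.09. Slc27a1, a fatty acid transport protein, measured 8.82, 8.49 and 8.35 in P467L and 8.29 in both non-transgenic aortas, a difference of 0.26 (SE 0.15, limma adjusted p = 0.784), or 0.13 without P467L replicate 1. A dimmer probe set of Slc27a1 gave 8.11, 7.83 and 7.73 in P467L and 7.68 and 7.60 in non-transgenic aortas. These 2 members lay higher in P467L without overlap, against 16.1% of all named genes, and 2 lay lower, Mgll and Prdm16, against 6.55% of all named genes.

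Mgll, the monoacylglycerol lipase that completes triglyceride breakdown, measured 11.37, 11.27 and 11.09 in P467L and 11.54 and 11.45 in non-transgenic aortas. The difference was -0.25 (SE 0.10, limma adjusted p = 0.705), the smallest adjusted p of any member. Of its other probe sets 1 gave -0.28 without overlap, while another bright one gave -0.08 with overlapping ranges. Lipe, the hormone-sensitive lipase, measured 8.69, 8.19 and 8.16 in P467L and 8.45 and 8.00 in non-transgenic aortas, in the same order of arrays as Retn and Cidec at the top and bottom.

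Fatty acid synthesis was read from 5 genes, of which 4 were lower and 1 higher as measured, with a median difference of -0.31, and 0 of 5 passed. Fasn, the fatty acid synthase, measured 10.92, 10.51 and 10.44 in P467L and 11.17 and 10.69 in non-transgenic aortas. Scd1, which desaturates fatty acids, measured 12.02, 11.60 and 11.69 in P467L and 12.30 and 11.91 in non-transgenic aortas. In both genes non-transgenic replicate 1 was the highest array and P467L replicate 1 the second, so that the ranges overlapped. The differences were -0.31 (SE 0.22) for Fasn and -0.34 (SE 0.19) for Scd1, and without non-transgenic replicate 1 they were -0.07 and -0.14. Thrsp, a small protein that promotes lipogenesis, spread more widely, with 9.88, 9.15 and 8.93 in P467L and 10.26 and 9.12 in non-transgenic aortas. Acaca, the acetyl-CoA carboxylase, had a difference of -0.14 (SE 0.12) and Acly, which supplies acetyl-CoA, of 0.02 (SE 0.11). The median of these 5 genes rested on non-transgenic replicate 1: without that array it was -0.02, with 2 higher and 3 lower, and without P467L replicate 1, non-transgenic replicate 2 or P467L replicate 3 it was -0.46, -0.53 and -0.18.

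Of the remaining white members, Car3, a carbonic anhydrase abundant in fat and muscle, measured 12.30, 11.61 and 12.02 in P467L and 12.54 and 11.56 in non-transgenic aortas. Cebpa, the transcription factor C/EBPα, measured 9.14, 8.76 and 8.79 in P467L and 9.02 and 8.56 in non-transgenic aortas, high in replicate 1 of both genotypes. Nnat, a small membrane protein found in fat and neurons, measured 7.07, 5.73 and 5.97 in P467L and 6.48 and 5.39 in non-transgenic aortas, the widest range of a white member at 1.68. Slc2a4, the insulin-responsive glucose transporter, had a difference of -0.14 (SE 0.14). Cyp4b1, a cytochrome P450, was the 1 white member that was highest in P467L replicate 2, at 9.17. Klb, the coreceptor β-Klotho, and Acvr1c, an activin-type receptor, were dim and ranged over 0.09 and 0.20.

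Brown adipocyte genes held the widest spread among the members. Ucp1 measured 8.86, 7.82 and 8.89 in P467L and 9.92 and 8.01 in non-transgenic aortas. The non-transgenic arrays alone differed by 1.91, or 3.76-fold, and the P467L arrays lay between 7.82 and 8.89. The difference between genotypes was -0.44 with an interval from -2.38 to 1.49, and it was -0.61 without P467L replicate 1, 0.51 without non-transgenic replicate 1 and -1.40 without non-transgenic replicate 2. Cox8b and Cox7a1, subunits of cytochrome c oxidase found in brown fat and striated muscle, behaved alike. Cox8b measured 9.15, 8.27 and 8.82 in P467L and 9.81 and 8.38 in non-transgenic aortas, and Cox7a1 measured 7.39, 6.61 and 6.97 in P467L and 8.15 and 6.92 in non-transgenic aortas. In Ucp1, Cox8b and Cox7a1 alike, non-transgenic replicate 1 was the highest array and P467L replicate 2 the lowest. Markers of skeletal muscle, a tissue that also makes these subunits, had a median difference of -0.04 over 14 genes, 5 higher and 9 lower. Their median deviations from the mean of the 5 arrays were 0.12, -0.05 and -0.09 in P467L and 0.11 and -0.14 in non-transgenic aortas, so that replicate 1 of both genotypes was high here too. The summed level of these markers was 10.86 to 11.24 in P467L and 10.60 to 10.85 in non-transgenic aortas. That sum follows the brightest markers, Pygm and Ckm, and 7 of the 14 had a mean below the median level of all probe sets. Ckm, the muscle creatine kinase, differed by 1.33 (SE 0.32, limma adjusted p = 0.491) and Pygm by 0.42. Most markers were lower as measured, among them Atp2a1 and Pvalb at -0.44 and -0.33. The part of skeletal muscle in the subunit levels was not tested. Cidea, a droplet protein of brown fat, measured 9.83, 9.46 and 9.32 in P467L and 10.35 and 9.53 in non-transgenic aortas, a difference of -0.40 (SE 0.31). Elovl3, a fatty acid elongase, followed the order of Adipoq at the top and bottom with a range of 0.42.

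Dio2 and Prdm16 were lowest in P467L replicate 1. Dio2, the deiodinase that activates thyroid hormone, measured 8.87, 9.72 and 9.99 in P467L and 9.39 and 9.30 in non-transgenic aortas. Its lowest and highest values both fell in the P467L group, with replicate 1 the lowest. Prdm16, a coregulator of the brown fat programme that is also present in other tissues, measured 9.89, 10.36 and 10.42 in P467L and 10.69 and 10.54 in non-transgenic aortas. The ranges did not overlap, and the difference was -0.39 (SE 0.19, limma unadjusted p = 0.105, adjusted p = 0.784). The 3 other probe sets of Prdm16, also above the median level, gave 0.01, -0.03 and 0.04 with overlapping ranges. Without P467L replicate 1, in which nuclear RNAs were low, the differences of Dio2 and Prdm16 were 0.51 and -0.22. Ebf2, a transcription factor of brown precursors, was high in replicate 1 of both genotypes and lowest in non-transgenic replicate 2, with a difference of 0.10 (SE 0.11). Its other probe sets did not share this order or sign. They gave -0.08 and -0.15, and non-transgenic replicate 2 was highest in them or tied for highest. Zic1, a marker of classical brown fat, lay near the bottom of the scale at 3.59 to 3.64 in all arrays, and Otop1, an ion channel of brown fat, was dim at 4.04 to 4.75.

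**Figure D2:**
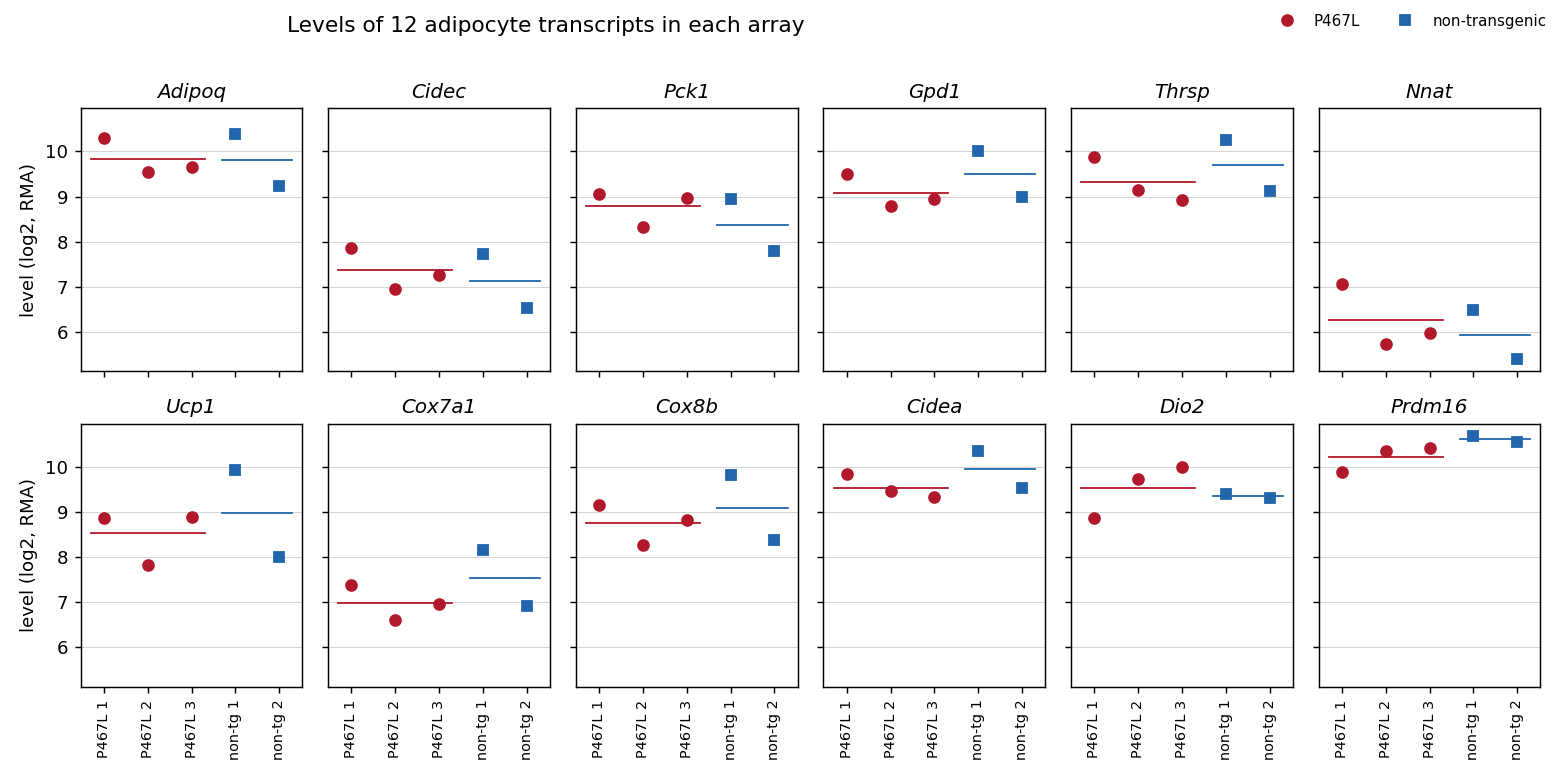
Levels (log2, RMA) of 12 members in each array, with P467L replicates 1 to 3 as red circles, non-transgenic replicates 1 and 2 as blue squares, and lines at the group means. Ucp1 reaches 9.92 in non-transgenic replicate 1 and 8.01 in replicate 2, while Dio2 is lowest, at 8.87, in P467L replicate 1.

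Within each genotype most members shared an order of arrays. Non-transgenic replicate 1 exceeded replicate 2 in 35 of 37 members, the exceptions being Slc27a1, with equal values, and Zic1, against 43.2% of all named genes. Of the 18193 named genes 7863 lay higher in replicate 1 and 7207 lower, and the rest had equal values. The median gap was 0.41 over the members and 0.00 over all named genes. A gap of 1 log2 unit or more, a size chosen after the values were seen, was found in 9 members, Adipoq, Cidec, Gpd1, Nnat, Pck1, Thrsp, Ucp1, Cox7a1 and Cox8b, and in 61 named genes in all, or 0.335%. None of the members had such a gap in the other direction, against 35 named genes. In the P467L group, replicate 1 exceeded both other arrays in 30 of 37 members, against 54.2% of all named genes. Relative to the mean of the 5 arrays, the median deviation of the white members was 0.17, -0.09 and -0.14 in P467L replicates 1 to 3 and 0.20 and -0.20 in non-transgenic replicates 1 and 2. For the brown members it was 0.14, -0.16 and -0.03 in P467L and 0.28 and -0.19 in non-transgenic aortas. The same values for all named genes lay between -0.02 and 0.05, and those for smooth muscle markers between -0.02 and 0.02. The order was not confined to fat transcripts, but its size differed between lists. Non-transgenic replicate 1 exceeded replicate 2 in 12 of 14 skeletal muscle, 6 of 7 peripheral nerve and 8 of 10 smooth muscle markers. The median gap was 0.30, 0.04 and 0.02 in these lists, against 0.41 over the members. P467L replicate 1 exceeded both other P467L arrays in 12 of 14, 7 of 7 and 4 of 10. Median deviations of the nerve markers were 0.04, -0.04 and -0.16 in P467L and 0.08 and 0.00 in non-transgenic aortas. The part of muscle or nerve in the members' levels was not tested.

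**Figure D3:**
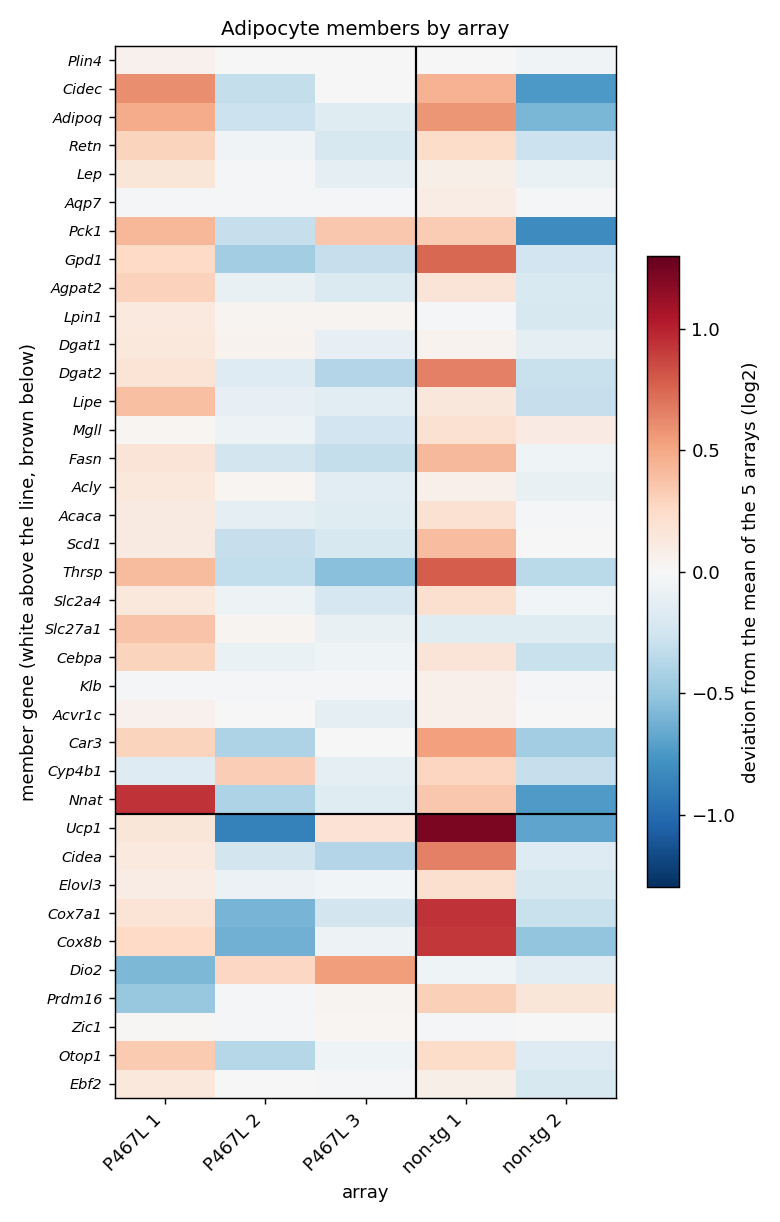
Deviation of each member (rows) from its mean over the 5 arrays (log2, colour) in each array (columns; P467L left of the vertical line, non-transgenic right of it), with white members above and brown members below the horizontal line. Most rows are red in P467L replicate 1 and non-transgenic replicate 1, and Dio2 and Prdm16 are blue in P467L replicate 1.

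The sign of the median difference between genotypes changed with the array that was left out. Without non-transgenic replicate 1, the richer in fat transcripts, the median was 0.17 for white and 0.17 for brown members, with 28 of 37 members higher and 7 lower. Without non-transgenic replicate 2 the medians were -0.22 and -0.37, with 5 members higher and 32 lower. Without P467L replicate 1 they were -0.08 and -0.24, with 9 higher and 28 lower. With P467L replicate 1 and non-transgenic replicate 2 both left out they were -0.32 and -0.38, a comparison of 2 arrays with 1. The members passed the test in none of these fits, in which 0 of 37 were called. All members were read in the same 5 pools, so these counts are not 37 separate measurements.

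Several brown members were lower in P467L replicate 1 than in non-transgenic replicate 1, the 2 arrays rich in fat transcripts. Adipoq, Cidec and Retn measured 10.30, 7.87 and 8.65 in P467L replicate 1 and 10.39, 7.72 and 8.60 in non-transgenic replicate 1, gaps of at most 0.15. In the same arrays Ucp1, Cox7a1 and Cox8b differed by -1.06, -0.76 and -0.66, and Cidea by -0.52. The median gap of P467L replicate 1 to non-transgenic replicate 1 was -0.01 over the 27 white members and -0.52 over the 10 brown ones. By the brightest probe sets, a gap of -0.5 or lower was found in 6 of 10 brown and 0 of 27 white members. Of all named genes 4.02% had such a gap. The size was chosen after the values were seen. The white members Gpd1 and Dgat2 lay just short of it at -0.49 and -0.48, and white members ran from there up to 0.59 in Nnat. The brown members past it included Dio2 and Prdm16, but only by their brightest probe sets. Further probe sets gave 0.02 and -0.39 for Dio2 and -0.13, 0.16 and -0.09 for Prdm16. For the white member Car3, a further probe set above the median level gave -1.40, a wider gap than that of Ucp1. The other probe sets of Car3 gave -0.24, by the brightest, -0.25 and -0.37. The other 4 brown members, Elovl3, Zic1, Otop1 and Ebf2, lay between -0.11 and 0.10. Outside the members, 5 of 45 other adipocyte genes passed it, Fabp4, Mlxipl, Lpl, Cd36 and Plin5, and 1 of 31 other brown adipocyte genes, and the median gap was -0.02 in each of these lists. This sets 1 array against 1 array, so it has no replicate check. P467L replicate 3 had 8.89 for Ucp1 with 9.66 for Adipoq, while P467L replicate 2 had 7.82 with 9.54, so Ucp1 also varied within the P467L group at nearly equal Adipoq.

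**Figure D4:**
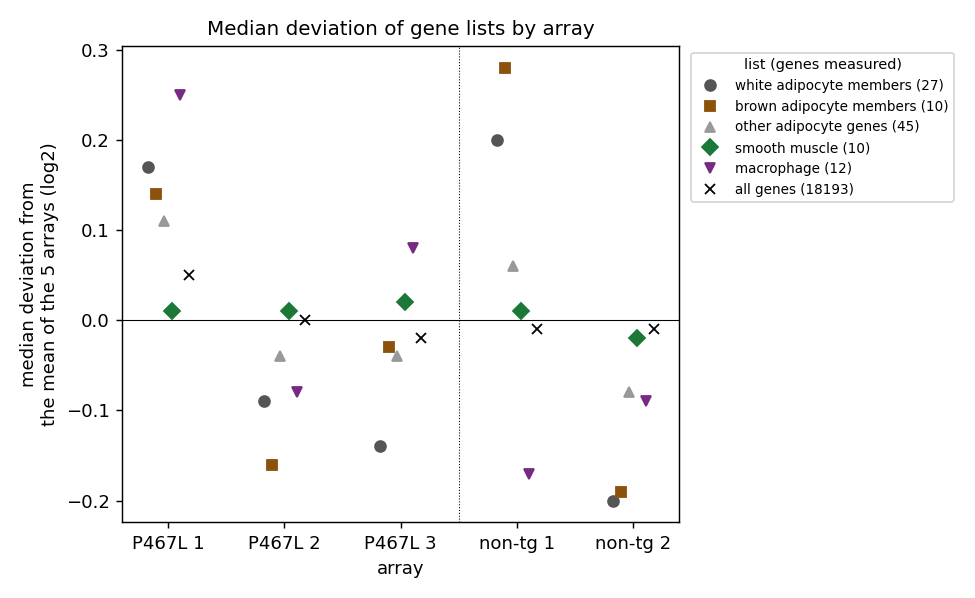
Median deviation from the mean of the 5 arrays (log2, vertical axis) of gene lists in each array, P467L left of the dotted line and non-transgenic right of it, with the number of measured genes in the key. White members reach 0.17 and 0.20 in replicate 1 of P467L and non-transgenic aortas, and smooth muscle markers stay between -0.02 and 0.02.

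Other adipocyte genes, 45 measured of 48 listed, showed a weaker form of the same order, with median deviations of 0.11, -0.04 and -0.04 in P467L and 0.06 and -0.08 in non-transgenic aortas. None passed the test, and at an unadjusted p of 0.05 limma placed 5 higher and 4 lower, where 6.94% and 2.51% of all named genes lay. Their median difference was 0.01. Sncg, a synuclein of fat and neurons, measured 10.09, 9.88 and 9.71 in P467L and 8.54 and 8.47 in non-transgenic aortas, a difference of 1.39 (SE 0.13, limma adjusted p = 0.199). The groups did not overlap in Sncg, unlike in Adipoq. Npy1r, a receptor of neuropeptide Y that smooth muscle also carries, measured 10.14, 10.00 and 10.00 in P467L and 9.61 and 9.50 in non-transgenic aortas. Nr1h3, a nuclear receptor of sterol metabolism, was at 7.92, 7.76 and 7.65 in P467L and 7.25 and 7.20 in non-transgenic aortas. Fabp4, the fatty acid binding protein of adipocytes, measured 11.70, 11.02 and 11.45 in P467L and 12.35 and 11.61 in non-transgenic aortas, with non-transgenic replicate 1 again the highest. Pparg itself measured 7.32, 7.27 and 7.27 in P467L and 7.32 and 6.91 in non-transgenic aortas. The labels cannot be checked with it, since it is unknown whether this mouse probe set also reads the human sequence.

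Of 34 other brown adipocyte genes 31 were measured, with a median difference of 0.00 and 0 past the test. Ppargc1b, a coactivator of mitochondrial genes, measured 7.61, 7.56 and 7.63 in P467L and 8.07 and 7.98 in non-transgenic aortas, a difference of -0.42 (SE 0.05, limma adjusted p = 0.229). Its P467L arrays lay within 0.07 of each other, unlike those of Ucp1. Fabp3, a fatty acid binding protein of muscle and brown fat, measured 9.74, 9.77 and 9.60 in P467L and 9.22 and 9.14 in non-transgenic aortas. Acot11, a thioesterase of brown fat, differed by 0.12 (SE 0.05). The 9 beige adipocyte genes had a median difference of 0.03 with 0 past the test. Tmem26, a surface protein of beige cells, measured 6.29, 6.36 and 6.29 in P467L and 6.15 and 5.68 in non-transgenic aortas. The differences of Tnfrsf9 and Sp100 were -0.22 and 0.16, with overlapping ranges.

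Beside these, markers of macrophages, cells that also live in fat, had median deviations of 0.25, -0.08 and 0.08 in P467L and -0.17 and -0.09 in non-transgenic aortas. As measured 12 of 12 were higher in P467L with 0 past the test, where 10196 of 18193 named genes were higher. Their summed level was 13.44 to 13.80 in P467L and 13.40 to 13.46 in non-transgenic aortas. The array with the highest level of brown members, non-transgenic replicate 1, had the lowest macrophage level. P467L replicate 1, the other array rich in fat transcripts, had the highest, at 13.80. Fibroblast and adipocyte precursor markers had a summed level of 15.12 to 15.26 in P467L and 15.07 to 15.10 in non-transgenic aortas. Their part in the adipocyte levels was not tested.

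A second reading came from 38 further probe sets of 21 members, of which 24 had the sign of the brighter one and 14 had the other sign or 0. None was called. Among those above the median level, further probe sets of Scd1 and Gpd1 gave -0.44 and -0.40, close to -0.34 and -0.41 by the brightest, while another of Gpd1 gave -0.24 and a dim one -0.17, and that of Dgat2 gave -0.05 against -0.31. Repeated identical values in several arrays occurred in 8 members, some of them dim, as Aqp7 and Klb, and some bright, as Plin4 and Lpin1. A mean below the median level of all probe sets was found in 7 members, and a change in these dim transcripts could have gone unseen.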

How the data were processed

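Per the submitters' processing notes, the authors used RMA and Affymetrix Power Tools, and the deposited values are on the log2 scale. RMA gives the probe intensities of all arrays 1 common distribution, which reduces any shift that most transcripts share. Medians of the deposited values still ran from 6.17 to 6.25 between arrays. Versions and scan dates are not given in the sources used here. Values ran from 3.03 to 14.99 with 2 decimals. Of 45101 probe sets 64 Affymetrix controls were left out. Of the remaining 45037, 34945 had 1 gene in the platform annotation, 932 with several genes stayed unnamed, and 9160 were unlisted. Symbols were updated with the GRCm38.p6 gene table. Of 243 list entries 225 were measured.

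Genotypes, taken from the titles, were fitted without covariates in limma 3.58.1 (R 4.3.3; lmFit, eBayes). Tests were two-sided with 4.23 degrees of freedom, and p-values were adjusted over all probe sets by Benjamini-Hochberg, with a threshold of 0.05. The fit was tested on simulated data. Differences are P467L minus non-transgenic. The number of arrays limits the precision. Named were all members, of each companion list the 3 genes with the smallest p, Pparg and Fabp4. Other companion genes and the cell type markers named, Malat1 and Chia1 among them, were chosen after values were seen. So were the 2 cut-offs on gaps between arrays. Members and lists were chosen with earlier results of these data known. Promoter sequences are from RefSeq. Alternatives were a replicate block, other scalings, filters, variance models and array weights, single arrays left out, and other probe set rules. Array weights estimated gene by gene were added after seeing the data.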

Additional observations from a re-analysis of the deposited data

How the results depend on the processing

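Over all probe sets limma called 0, and it called 15 with each array centred on its median, 10 with 1 probe set per gene, 17 at an adjusted p of 0.10, 3353 at an unadjusted p of 0.05, 2245 with array weights and 283 with weights estimated gene by gene. The first array weights did not converge and gave P467L replicate 2 a weight of 34.06. Of those 3353 probe sets 63.2% were higher in P467L, and with median centring the share was 77.1%. Members past the threshold numbered 0 under each alternative in which they were counted, with 30 and 35 of 37 members left by the filters on dim probe sets. With the probe sets of a gene averaged, limma called 0.0385% of genes. The median differences of white and brown members were then -0.01 and -0.08. With the median deviation of other adipocyte genes subtracted from each array, limma called 0.102% of probe sets, and these medians were 0.00 and -0.23. The median difference of the white members was 0.02 and ran from -0.22 to 0.17 with single arrays left out, and was -0.32 without P467L replicate 1 and non-transgenic replicate 2. That of the brown members was -0.21, ran from -0.37 to 0.17 with single arrays left out, and was -0.38 without both. The cause of these shifts was not tested beyond the array values given above. The labels do not say that a replicate number marks a shared origin, and only numbers 1 and 2 occur in both genotypes. The difference of replicate 1 minus replicate 2 in non-transgenic arrays correlated at 0.086 with that in P467L arrays over all probe sets. With the replicate number as a block the medians were 0.08 and -0.17 and 0 probe sets were called. Up to 13 of 37 members changed sign under an alternative. Of 620 values of single members under the alternatives, 62 moved by more than the spread between replicates.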
